A study of Mus musculus with 24 samples.

Results

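Transcripts of 36 genes of mitosis were followed in the mouse oesophagus, with and without the transcription factor Nrf2 (gene Nfe2l2) and with and without reflux of digestive fluids. The genes were taken by name from the probe annotation of the arrays, with older symbols matched through their transcript accessions, and all 36 were found, by 60 probes, among 20555 genes tested. All mice were labelled male, 12 weeks old and of strain C57BL/6J, and were either wild type or Nrf2-/-, a deletion not restricted to a tissue in the labels. Each genotype was sampled without reflux and with gastric, duodenal or mixed reflux of 4 weeks, with 3 arrays in each of the 8 groups, called biological replicates in the labels. RNA came from dissected, snap-frozen oesophagi. The tissue was labelled whole esophagus in 7 groups and esophageal epithelium in the Nrf2-/- mixed reflux group, while the source names gave epithelium for all 8. Each Cy5-labelled oesophagus sample was hybridised against 1 common Cy3-labelled reference, RNA pooled from 11 mouse cell lines, so a level here is the log2 ratio of oesophagus to that reference, and a level below 0 is lower than in the cell lines. Because bulk tissue was measured, fewer dividing cells and less mitotic RNA per cell cannot be told apart.

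Mitosis is driven by cyclin-dependent kinase 1 with its cyclins, by the Aurora and Polo-like kinases, and by the anaphase-promoting complex, which ends it by marking cyclins and the cohesin protector securin for destruction. Most of the transcripts concerned are made in G2 and M phase, under the FOXM1, B-Myb and MuvB proteins, and are kept off in resting cells by the DREAM complex. In the oesophageal epithelium of the mouse, division is confined to the basal layer, and cells leave the cycle as they move up and keratinise. Nrf2 controls genes of antioxidant defence and detoxification.

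Between 34 and 36 of the 36 genes were well above background in Cy5 on each array. Genes were tested only where well above background on all arrays of a group, which favours such counts. The counts show detection and not that these transcripts mark mitosis here. The Nfe2l2 probe read 1.45 to 2.18 on 10 wild type arrays, outside the slide of arrays 1 and 2 without reflux, and -3.81 to -2.83 on the 12 Nrf2-null arrays. No source used here says whether that probe lies in the deleted part. Median net Cy5 signal ran from 42.7 intensity units on wild type no-reflux array 2 to 207.5 on wild type gastric array 2. On wild type no-reflux array 1 it was 63.5. Wild type no-reflux arrays 1 and 2 were on a slide of their own, read by another version of the scanner software, with 11.8% to 13.0% of spots marked as outliers and left out, against 0.293% to 0.659% elsewhere. Each of these arrays lacked 14 of the 36 genes, so that the wild type no-reflux value of 11 genes rested on array 3 alone. The 3 Nrf2-null mixed reflux arrays differed by no more than repeat spots of 1 array do (0.652 to 0.935 times that variance) and were averaged to 1 sample. Nrf2-null gastric array 2 went against its male label, with Xist at -1.78 against -7.20 to -4.67 on the other 23 arrays and Eif2s3y at -4.09 against 1.47 to 3.10 where measured. Nrf2-null gastric array 1 (51.6 units of net Cy5; correlation over probes 0.711 and 0.752 with its group) and duodenal array 2 (47.8 units; 0.882 and 0.883) stood apart from their groups. Wild type gastric array 1 correlated at 0.865 and 0.875 with arrays 2 and 3, themselves at 0.983, and wild type mixed array 2 at 0.918 and 0.907 with arrays 1 and 3, themselves at 0.965.

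The promoters of mitotic genes commonly carry CCAAT boxes, bound by NF-Y, and a cell cycle genes homology region (CHR), the site that recruits MuvB complexes. RefSeq promoter windows (GRCm38.p6, 250 bases before to 50 after the start) were at hand for 30 of the 36 genes, the others being Ccna2, Cdc25c, Aurkb, Incenp, Kif20a and Tpx2. Searched on both strands, TTTGAA or TTTAAA, the letters of the CHR, stood in 24 of these 30 windows (80%), against 27.8% of 27025 windows of all genes. CCAAT, which was allowed to overlap other matches, stood in 24 (80%) against 37.9%, and both together in 21 (70%) against 10.9%. Among 43 genes of G1 and S phase, of which 33 had a window, 24.2% held the CHR letters and 60.6% CCAAT. Among 75 windows of other mitotic genes the shares were 57.3% and 61.3%. Mad2l1, Pttg1 and Nusap1 held neither. The following 4 windows, 150 bases before to 30 after the start, are shown because these genes lead their role groups below and hold both motifs. Capitals mark CCAAT, which reads ATTGG on the other strand, and the letters TTTAAA or TTTGAA, the latter of which read TTCAAA on the other strand.
Cks1b chr3:89418262-89418441 minus strand: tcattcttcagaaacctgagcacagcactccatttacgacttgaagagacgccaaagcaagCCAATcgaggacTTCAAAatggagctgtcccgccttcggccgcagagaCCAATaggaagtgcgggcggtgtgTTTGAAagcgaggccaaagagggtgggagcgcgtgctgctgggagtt
Cdc20 chr4:118437314-118437493 minus strand: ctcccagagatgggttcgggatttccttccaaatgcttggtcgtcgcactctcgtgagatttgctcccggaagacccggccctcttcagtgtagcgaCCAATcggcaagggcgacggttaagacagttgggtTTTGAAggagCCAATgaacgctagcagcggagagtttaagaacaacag
Cenpa chr5:30666736-30666915 plus strand: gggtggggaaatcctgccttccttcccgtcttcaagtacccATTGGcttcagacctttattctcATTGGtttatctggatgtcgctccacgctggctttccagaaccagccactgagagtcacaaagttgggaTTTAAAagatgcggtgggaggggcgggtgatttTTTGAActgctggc
Plk1 chr7:122159285-122159464 plus strand: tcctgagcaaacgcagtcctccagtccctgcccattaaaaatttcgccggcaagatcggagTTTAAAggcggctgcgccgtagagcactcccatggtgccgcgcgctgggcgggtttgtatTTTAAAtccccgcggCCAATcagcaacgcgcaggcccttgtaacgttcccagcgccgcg
In the printed windows the CHR letters began 77 (other strand) and 17 bases before the start in Cks1b, 18 before in Cdc20, 17 before and 17 after in Cenpa, and 89 and 29 before in Plk1. A match is a description of the letters and not a measured site.

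With gastric reflux 23 of the 36 genes were higher in Nrf2-null than in wild type oesophagus, and without reflux none differed past the threshold. These genes had been proposed with opposite genotype differences without and with reflux in view. The genotype counts and medians below therefore restate that choice and are not evidence about the set. In the no-reflux comparison the median difference (Nrf2-null minus wild type) was -0.30, beside 0.03 over all genes, but 0.28 beside 0.32 under median centring in place of loess normalization. With loess, 34 of 36 differences were below 0, beside 45.5% of all genes. None of the 36 passed the test (limma, Benjamini-Hochberg over all genes, adjusted p under 0.05), beside 0.0876% of all genes called higher and 0.0827% lower, and 7 were lower at an unadjusted p under 0.05, beside 2.95%. In 18 genes the Nrf2-null arrays lay below the wild type arrays that measured the gene, beside 12.8% of all genes, but 11 of these were measured on wild type array 3 alone, and with outlier spots kept 8 of those 11 overlapped. Under gastric reflux none of the 36 was called lower, and the 23 called higher stand beside 10.5% of all genes called higher and 7.19% lower. The median difference was 0.79, beside 0.11 over all genes, and 35 differences were above 0, beside 59.4% of all genes, from Cenpa at 1.38 down to Pttg1 at -0.45. The arrays of both genotypes did not overlap in 21 genes, beside 18.8% of all genes.

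The slides were scanned on 3 days. All wild type gastric arrays were scanned on day 2 and all Nrf2-null gastric arrays on day 3, so that within this condition scan day and genotype cannot be told apart. Only the no-reflux groups were scanned on more than 1 day. In any fit with scan day as a block, the shift from day 2 to day 3 therefore comes from Nrf2-null no-reflux array 3 against arrays 1 and 2. It rests on that 1 array. With this block the median over members was 0.55 and no member passed, nor did more than 4 genes of all. A fit on the gastric arrays alone also called no member, and 1 gene of all. With median centring 1 member was called (Cdc20) at a median of 0.54, beside -0.06 over all genes. Without wild type gastric array 3 the count fell to 13, and without array 2 to 15. Without the Nrf2-null array that went against its sex label it was 21.

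Under duodenal reflux none of the 36 genotype differences passed, beside 1.2% of all genes called higher and 0.691% lower, the median difference was -0.18 beside 0.05 over all genes, and at an unadjusted p under 0.05 1 gene was higher and 3 lower, beside 10.7% and 7.23% of all genes. Under mixed reflux Cks1b (0.93 ± 0.20, SE) and Cdk1 (0.82 ± 0.16) were called higher and none lower, beside 2.29% and 1.16% of all genes, and the median was 0.47 beside 0.01. The Nrf2-null arm is here 1 sample, labelled epithelium, with its spread taken from the other groups. Of 10 smooth muscle genes 2 were lower in it (median -1.11), and of 9 neutrophil genes 4 were higher (1.69), and their part in the result was not tested. Here 30 of 36 differences were above 0, beside 50.5% of all genes. With the low-signal arrays Nrf2-null gastric 1 and duodenal 2 left out the mixed reflux count rose to 9, and without wild type mixed array 1 it fell to 1. The genes were proposed for description with an opposite genotype difference without and with reflux already in view. With loess the medians were opposite for gastric and mixed reflux and of the same sign for duodenal reflux, and with median centring those without reflux and with gastric or mixed reflux were all above 0.

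**Figure D1:**
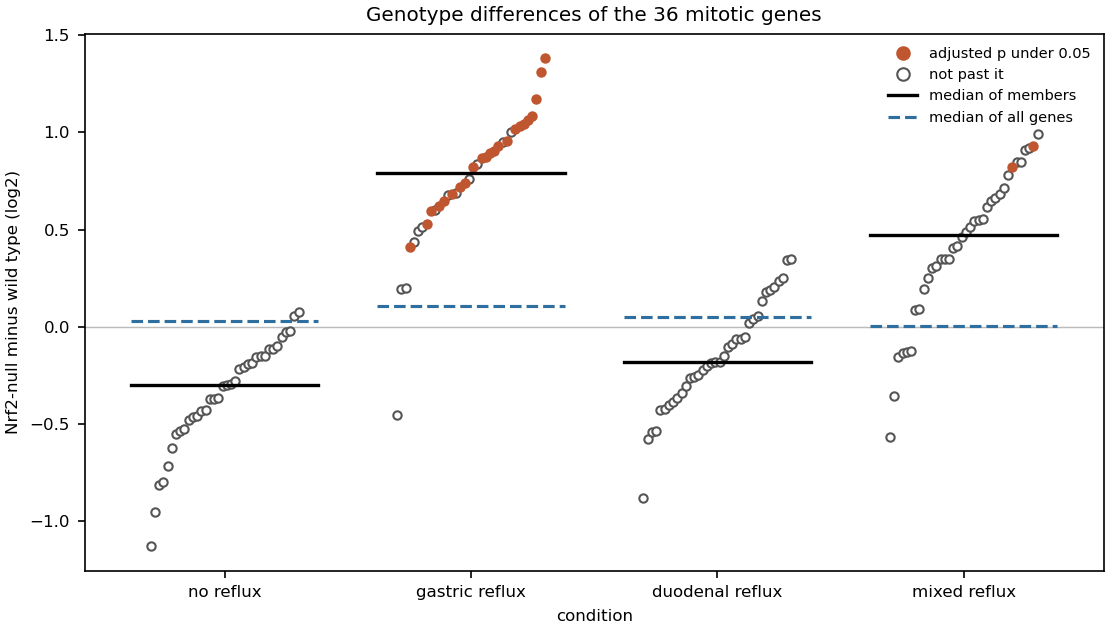
Genotype difference (Nrf2-null minus wild type, log2) of each of the 36 mitotic genes without reflux and under gastric, duodenal and mixed reflux, filled where the adjusted p is under 0.05, with the median of the members (solid line) and of all genes (dashed line). The gastric points lie highest, with a median of 0.79 and 23 filled points, and the no-reflux points lie mostly below 0 with none filled.

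The genes are taken next by role, with the level on every array for 1 gene of each role. That gene had the smallest p of its role in the interaction over the mean of reflux types (limma), the pattern the set was proposed for. It need not be typical of its role. The p-values given for it below come from values that also chose it, so they describe it and are no independent support. Among the genes of entry into mitosis (Cdk1, the cyclins Ccna2, Ccnb1 and Ccnb2, the CDK subunits Cks1b and Cks2, and the phosphatase Cdc25c, which activates the kinase), 4 of 7 were called higher in Nrf2-null gastric reflux: Cks2 at 1.03, Ccna2 at 0.72, Ccnb2 at 0.62 and Cdk1 at 0.41. Cks1b, a small CDK-binding protein that also helps SCF-Skp2 mark the inhibitor p27 for destruction, was not among these and had its largest genotype difference under mixed reflux (probe at chr3:89219410-89219469, mm9). Its levels in wild type mice were -2.55, -2.42 and -2.43 without reflux, -2.77, -3.33 and -3.12 with gastric, -2.16, -2.08 and -2.16 with duodenal and -2.96, -2.67 and -2.86 with mixed reflux. In Nrf2-null mice they were -3.03, -2.85 and -3.18 without reflux, -2.99, -2.82 and -2.82 with gastric, -2.05, -1.77 and -1.99 with duodenal and -1.98, -1.89 and -1.84 with mixed reflux. The Nrf2-null arrays lay below the wild type ones without reflux and above them under duodenal and mixed reflux, with no overlap in any of these, and overlapped them under gastric reflux. In Nrf2-null mice Cks1b rose with duodenal reflux by 1.08 ± 0.14 (adjusted p = 0.000101, limma) and with mixed reflux by 1.12 ± 0.20 (adjusted p = 0.0032). In wild type mice it fell with gastric reflux by 0.60 ± 0.14 (adjusted p = 0.0295) and was 0.34 ± 0.14 higher with duodenal reflux, which did not pass (adjusted p = 0.144). Ccnb1 at 1.00 and Cdc25c at 0.44 under gastric reflux did not pass.

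Of the mitotic kinases, Ttk (0.93), Nek2 (0.82) and Aurka (0.68) were called higher in Nrf2-null gastric reflux and Plk1 was not. Ttk is the checkpoint kinase MPS1, Nek2 separates centrosomes and Aurka matures them. Plk1, the Polo-like kinase that acts from mitotic entry to cytokinesis, had its probe at chr7:129313220-129313279 (mm9). In wild type mice it read -1.47 and -1.10 without reflux on arrays 2 and 3, -1.64, -2.08 and -1.99 with gastric, -1.06, -1.22 and -0.95 with duodenal and -1.63, -1.58 and -1.46 with mixed reflux. Nrf2-null mice read -1.94, -1.70 and -1.82 without reflux, -0.93, -1.85 and -1.38 with gastric, -1.19, -0.76 and -1.11 with duodenal and -0.78, -0.73 and -0.82 with mixed reflux. Nrf2-null gastric arrays 1 and 3 lay above all wild type gastric arrays, and array 2 among them. Plk1 rose in Nrf2-null mice with duodenal (0.80 ± 0.20, adjusted p = 0.0114) and mixed reflux (1.04 ± 0.28, adjusted p = 0.0445), and its gastric genotype difference of 0.51 ± 0.20 did not pass (adjusted p = 0.0827).

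The chromosomal passenger complex corrects faulty kinetochore attachments and steers cytokinesis, and is made of the kinase Aurkb, the scaffold Incenp, and Birc5 (survivin) and Cdca8 (borealin), which place it at centromeres. Aurkb (1.07), Birc5 (0.90) and Cdca8 (0.74) were called higher in Nrf2-null gastric reflux, and Incenp stood at 0.60. Birc5, with its probe at chr11:117716959-117717018 (mm9), was measured on 1 wild type array without reflux, at -0.95. With outlier spots kept it read -1.80, -1.34 and -0.95 on those 3 arrays. Wild type levels were -1.62, -2.08 and -2.32 with gastric, -1.00, -0.83 and -0.99 with duodenal and -1.36, -1.51 and -1.48 with mixed reflux. In Nrf2-null mice the levels were -1.81, -1.65 and -1.82 without reflux, -0.88, -1.20 and -1.23 with gastric, -0.89, -0.41 and -0.90 with duodenal and -0.56, -0.60 and -0.65 with mixed reflux. The genotypes did not overlap under gastric or mixed reflux and overlapped under duodenal reflux. Birc5 rose in Nrf2-null mice with duodenal (1.03 ± 0.18, adjusted p = 0.0013) and mixed reflux (1.16 ± 0.25, adjusted p = 0.0153). Its fall in wild type gastric reflux, by 1.05 ± 0.25 (adjusted p = 0.035), rests on the single no-reflux value.

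Among the genes of the spindle checkpoint and of anaphase onset, Bub1 (1.31), Cdc20 (1.08) and Ube2c (0.59) were called higher in Nrf2-null gastric reflux. Bub1 is a checkpoint kinase at kinetochores, Cdc20 the activator of the anaphase-promoting complex on which the checkpoint acts, and Ube2c its ubiquitin-conjugating enzyme. The checkpoint proteins Mad2l1 (0.76) and Bub1b (0.49) did not pass. Cdc20 (probe at chr4:118105536-118105595, mm9) read -0.24 on wild type no-reflux array 3, which alone measured it, and -1.21, -0.77 and -0.24 on the 3 arrays with outlier spots kept. With reflux the wild type levels were -1.06, -1.73 and -1.74 (gastric), -0.46, -0.46 and -0.43 (duodenal) and -0.75, -0.82 and -0.73 (mixed). The Nrf2-null levels were -1.55, -1.31 and -1.24 without reflux, 0.00, -0.70 and -0.59 with gastric, -0.57, -0.57 and -0.38 with duodenal and -0.31, -0.48 and -0.45 with mixed reflux. Every Nrf2-null array with reflux thus lay above every Nrf2-null array without it, and the gastric arrays of the genotypes did not overlap. Cdc20 was the only member called with gastric reflux in Nrf2-null mice (0.94 ± 0.19, adjusted p = 0.0421), and it rose there with duodenal reflux (0.86 ± 0.19, adjusted p = 0.00685). Pttg1, securin, which holds separase until anaphase, was the only member above 0 in wild type gastric reflux against no reflux, at 0.54. That value rests on wild type no-reflux array 3 alone. Pttg1 was also the only member below 0 in the gastric genotype difference, at -0.45. Neither value passed the threshold. Its mixed genotype difference was -0.57, in a comparison where 6 of 36 members were below 0. On the arrays, wild type gastric Pttg1 read -0.55, 0.04 and 0.07 and Nrf2-null gastric -0.17, -0.97 and -0.66.

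At the centromere, Cenpa, the histone H3 variant that marks where kinetochores form, had the largest gastric genotype difference of all 36 genes (1.38 ± 0.20, adjusted p = 0.00142). Its probe lay at chr5:30976729-30976788 (mm9). In wild type mice it read -1.19 and -0.78 without reflux on 2 arrays, -1.54, -2.11 and -2.30 with gastric, -0.82, -0.55 and -0.62 with duodenal and -0.66, -1.02 and -1.06 with mixed reflux. Nrf2-null mice gave -1.76, -1.51 and -1.13 without reflux, -0.70, -0.37 and -0.73 with gastric, -0.30, -0.29 and -0.37 with duodenal and -0.60, -0.53 and -0.57 with mixed reflux. Wild type gastric arrays had the lowest mean and Nrf2-null duodenal arrays the highest, and the genotypes were apart without overlap under each type of reflux but not without it. Cenpa rose in Nrf2-null mice with duodenal reflux (1.15 ± 0.20, adjusted p = 0.00127). The kinetochore motor Cenpe (0.95) and the kinetochore protein Cenpf (0.68) were not called under gastric reflux.

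The spindle motors and microtubule binders were the only role group with every member called in the gastric genotype comparison, 7 of 7. The Nusap1 call holds for its brightest probe, since another probe had the opposite sign. With 1 array left out its adjusted p (limma) rose to as much as 0.0697. Kif11, which pushes spindle poles apart, stood at 0.53, Kif2c, a microtubule-shortening kinesin, at 0.87, and Kif20a and Kif23, kinesins of the midzone, at 0.95 and 1.17. Prc1, which bundles midzone microtubules, stood at 0.65, Nusap1 at 1.05, and Tpx2, which activates Aurora A on the spindle, at 0.87 ± 0.17 (adjusted p = 0.00419). In wild type mice Tpx2 (probe at chr2:152719476-152719535, mm9) read -2.23, -2.28 and -1.87 without reflux, -2.40, -2.98 and -3.11 with gastric, -1.86, -1.80 and -1.72 with duodenal and -2.07, -2.00 and -1.89 with mixed reflux. In Nrf2-null mice it read -2.62, -2.45 and -2.20 without reflux, -1.89, -2.07 and -1.92 with gastric, -1.91, -1.90 and -2.02 with duodenal and -1.25, -1.22 and -1.34 with mixed reflux. The gastric and mixed arrays of Nrf2-null mice lay above all wild type arrays of the same condition, and the duodenal ones below. Tpx2 rose in Nrf2-null mice with mixed reflux (1.15 ± 0.23, adjusted p = 0.00789).

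Of the cytokinesis genes, Racgap1 (1.02) and Ect2 (0.89 ± 0.26, adjusted p = 0.0255), the partners that switch on RhoA at the cleavage site, were called higher in Nrf2-null gastric reflux, and the ring protein Anln (0.84) was not. Ect2 (probe at chr3:26996310-26996369, mm9) read -1.90, -1.81 and -1.76 in wild type mice without reflux, -2.14, -2.68 and -3.06 with gastric, -1.53, -1.74 and -1.65 with duodenal and -1.74, -1.67 and -1.66 with mixed reflux. Nrf2-null mice gave -2.60, -2.19 and -1.79 without reflux, -2.32, -1.50 and -1.37 with gastric, -1.88, -2.25 and -1.70 with duodenal and -1.57, -1.57 and -1.66 with mixed reflux. The gastric groups overlapped, since Nrf2-null array 1 lay below wild type array 1. The proliferation marker Mki67 and the chromosome-untangling enzyme Top2a were called in no comparison. Mki67 (probe at chr7:142881591-142881650, mm9) read -1.98 and -1.21 on 2 wild type arrays without reflux, -1.87, -2.41 and -2.49 with gastric, -1.33, -1.36 and -1.41 with duodenal and -1.30, -1.90 and -1.19 with mixed reflux. In Nrf2-null mice it read -1.74, -1.76 and -1.74 without reflux, -0.80, -2.35 and -1.54 with gastric, -1.73, -1.35 and -1.76 with duodenal and -1.21, -1.22 and -1.20 with mixed reflux. Nrf2-null gastric arrays 1 and 3 lay above all wild type gastric arrays and array 2 between wild type arrays 1 and 2, and the genotype difference there was 0.69 ± 0.31 (adjusted p = 0.126).

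**Figure D2:**
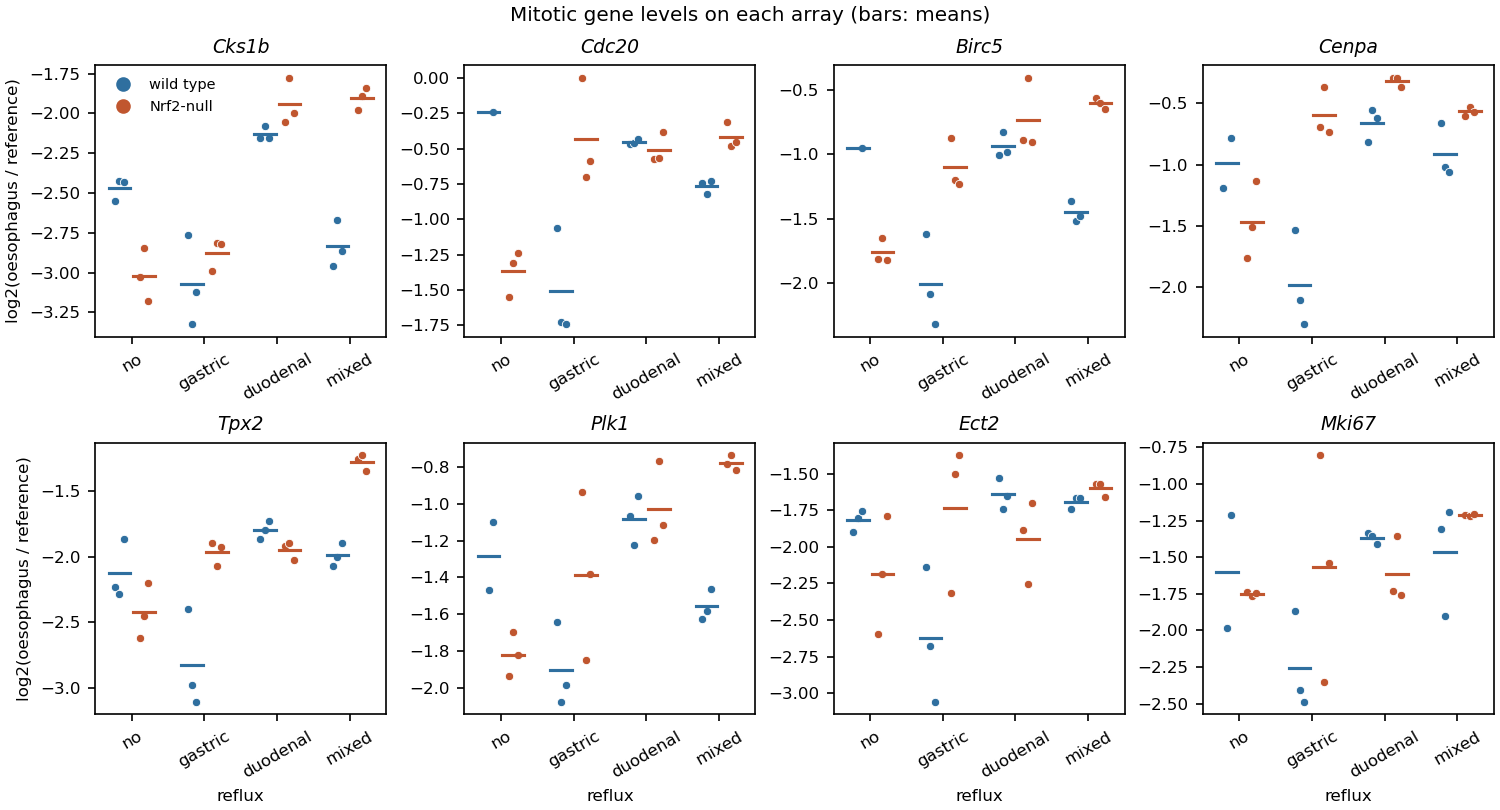
Levels (log2 of oesophagus over reference) on each array of 8 mitotic genes, 1 of each role, by reflux type. Wild type and Nrf2-null arrays are points and group means are bars. Each gene had the smallest p of its role in the mean interaction. Cdc20, Birc5 and Cenpa show wild type gastric arrays as the lowest of the wild type groups and Nrf2-null gastric arrays above them without overlap, while Mki67 overlaps. For Cdc20 and Birc5 the wild type no-reflux point is array 3 alone. With outlier spots kept, no-reflux array 1 read -1.21 and -1.80, within the range of the wild type gastric arrays.

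Reflux was then compared with no reflux within each genotype. Comparisons within a genotype share its no-reflux arrays, so their values are given side by side only. In wild type mice 11 genes were called lower with gastric reflux and none higher, beside 1.06% of all genes called lower and 3.07% higher, with a median of -0.64 beside -0.03. Median centring put these medians at -0.03 and 0.30 and left 1 call. The 6 with the largest differences were Cdc20 (-1.27), Cks2 (-1.18), Birc5 (-1.05), Ccna2 (-1.00), Cenpa (-0.99) and Kif23 (-0.96), and the others were Ccnb2, Bub1, Aurkb, Tpx2 and Cks1b. In 4 of these 11 (Ccna2, Ccnb2, Birc5 and Cdc20) the wild type no-reflux value came from array 3 alone. The calls hang on single arrays: none remained without any 1 of the 3 no-reflux arrays or without gastric array 2 or 3, and 20 were made without gastric array 1. None were left with scan day or slide as a block, both at a median of -0.84.

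With duodenal reflux, wild type mice had 2 genes called higher, Ttk (0.67) and Kif2c (0.58), and none lower, beside 7.26% and 3.06% of all genes, and a median of 0.23 beside 0.08. Scan day as a block, whose day 2 to day 3 shift rests on Nrf2-null no-reflux array 3, turned this median to -0.15. The Ttk call was lost whichever of the 6 arrays was left out, and the Kif2c call without any of them but no-reflux array 3. With mixed reflux none of the 36 passed, beside 0.0438% of all genes called higher and 0.00973% lower, and at an unadjusted p under 0.05 1 was higher and 3 lower, beside 7.36% and 3.83% of all genes. The median was -0.14, or 0.20 with median centring. In Nrf2-null mice every call was in the direction of higher levels. Gastric reflux gave 1 call (Cdc20), beside 0.438% of all genes called higher and 0.146% lower, with 18 higher at an unadjusted p under 0.05, beside 10.5%, and a median of 0.45 beside 0.06. Without Nrf2-null no-reflux array 1 or 2 or gastric array 1 no call remained, and without no-reflux array 3 there were 3 and without gastric array 3 there were 2.

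Duodenal reflux in Nrf2-null mice gave 11 calls, or 30.6% of the 36, beside 13.5% of all genes called higher and 6.31% lower, and a median of 0.30 beside 0.08, though the median was -0.11 beside -0.17 with median centring, which left no call. The largest were Cenpa (1.15), Cks1b (1.08), Birc5 (1.03), Bub1 (0.89), Cdc20 (0.86) and Plk1 (0.80), followed by Ube2c, Aurka, Ccna2, Kif2c and Cdca8. With scan day as a block 3 of 36 were called. Nrf2-null duodenal arrays 1 and 3 lay close together, at a correlation over probes of 0.988 and 2.14 times the variance of repeat spots. Array 2 was the low-signal array that stood apart. In the same comparison 11 of 20 squamous differentiation genes (median 0.85), 7 of 9 neutrophil genes (2.42) and 5 of 16 T, B and NK cell genes (0.34) were called higher. Their part in the mitotic differences was not tested. Mixed reflux gave 6 calls, beside 3.43% of all genes called higher and 1.32% lower, with a median of 0.66 beside 0.04: Bub1 (1.29), Birc5 (1.16), Tpx2 (1.15), Cks1b (1.12), Plk1 (1.04) and Cdk1 (0.73). With scan day as a block 1 was called at a median of 0.59. Here 2 of 10 smooth muscle genes were lower (median -1.46) and 5 of 9 neutrophil genes higher (2.16), which was likewise not tested. The same single sample stands behind these mixed reflux values.

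**Figure D3:**
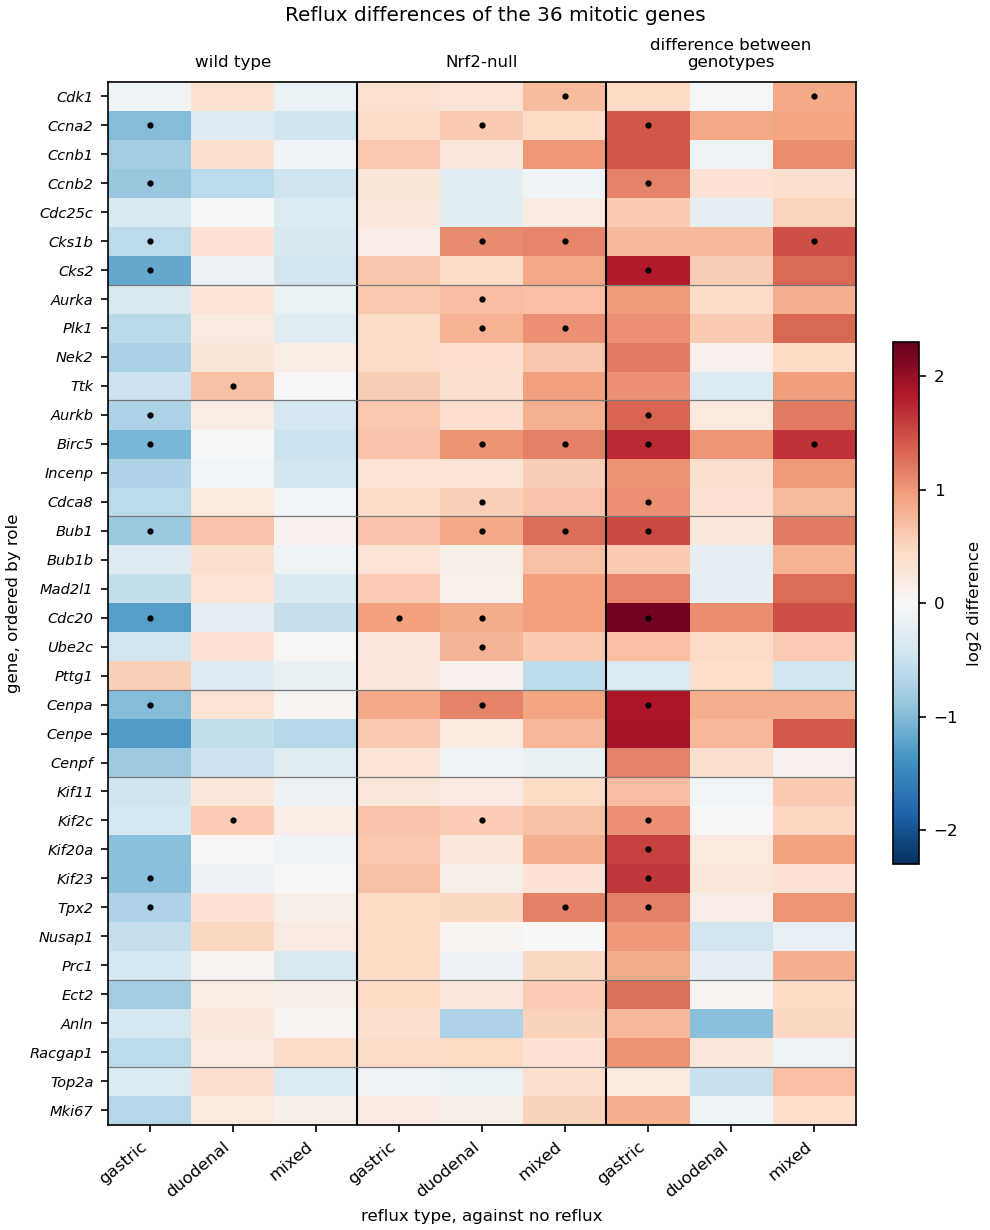
Difference between each reflux type and no reflux (log2) of the 36 mitotic genes, ordered by role, in wild type (left columns) and Nrf2-null mice (middle columns), with the interactions at the right and dots on genes whose adjusted p is under 0.05. Wild type gastric reflux shows lower levels with 11 dots, and Nrf2-null duodenal and mixed reflux show higher levels with 11 and 6 dots.

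The interaction is the genotype difference under a type of reflux minus that without reflux. The genes were proposed with opposite differences of this kind in view, so the counts and medians over them restate that choice and are given as a description, not as evidence about the set. For gastric reflux 13 of 36 were past the threshold, all above 0, beside 1.05% of all genes above and 0.735% below 0, with a median of 1.06 beside 0.06, or 0.26 beside -0.42 with median centring, which left 2 calls. Cdc20 led at 2.21 ± 0.34 (adjusted p = 0.0115), or 1.71 with outlier spots kept, followed by Cenpa (1.86), Cks2 (1.83), Birc5 (1.71), Kif23 (1.63) and Kif20a (1.58). Mixed reflux gave 3 calls (Birc5 1.66, Cks1b 1.48 and Cdk1 0.88) beside 0.939% of all genes above and 0.389% below 0, and a median of 0.83. Duodenal reflux gave none, beside 0.204% of all genes above and 0.117% below 0, with 5 above 0 at an unadjusted p under 0.05, beside 6.95%, and a median of 0.23, which was -0.65 with median centring. For the mean over the 3 types 4 passed (Cdc20 1.59, Birc5 1.46, Cks2 1.24 and Cks1b 0.99), beside 0.399% of all genes above and 0.117% below 0. With scan day as a block no interaction passed for gastric, mixed or mean reflux, at medians of 1.05, 0.91 and 0.77.

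The interaction calls moved with single arrays. For gastric reflux they numbered 25 without wild type gastric array 1 and 20 without Nrf2-null gastric array 1. They fell to 3 without wild type gastric array 2, to 4 without wild type gastric array 3, wild type no-reflux array 2 or Nrf2-null no-reflux array 2, and to 5 without wild type no-reflux array 3 or Nrf2-null no-reflux array 1. For mixed reflux 1 call was left without wild type no-reflux array 2 or 3, wild type mixed array 1 or 3, or any Nrf2-null no-reflux array. For the mean over types no call was left without wild type no-reflux array 2 or Nrf2-null no-reflux array 1 or 2. There was 1 without wild type no-reflux array 1 or 3, any wild type duodenal array or wild type mixed array 3, 2 without wild type gastric array 2, 9 without wild type gastric array 1 and 8 without Nrf2-null gastric array 1.

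Other genes of the cell cycle were read from lists that share no gene with the 36. These lists were chosen with earlier results of these data known, so they are no independent check. In the gastric genotype comparison scan day and genotype cannot be told apart, and few genes of all were called with scan day as a block. The Nrf2-null mixed reflux arm is 1 sample labelled epithelium. Of 88 other mitotic genes, 53 were called higher and 1 lower in Nrf2-null gastric reflux, beside 10.5% and 7.19% of all genes, at a median of 0.70, led by the cohesion acetyltransferase Esco2 (1.40), the kinase Pbk (1.40) and the CDK phosphatase Cdc25b (1.37), with the microtubule polymerase Ckap5 lower at -1.61. In wild type gastric reflux against no reflux 16 of the 88 were called lower, beside 1.06% of all genes, and none higher. The 43 genes of G1 and S phase differed most under mixed reflux, where 20 were called higher in Nrf2-null mice, beside 2.29% of all genes, at a median of 0.95, among them the replication factors Mcm10 (2.06), Mcm4 (2.02), Mcm3 (1.92) and Cdc45 (1.79). Under gastric reflux 18 of them were called higher, beside 10.5%, at a median of 0.45. With duodenal reflux 25 of the 43 rose and 1 fell in wild type mice, beside 7.26% and 3.06% of all genes, and 27 rose and 1 fell in Nrf2-null mice, beside 13.5% and 6.31%, while 2 and 11 of the 36 mitotic genes rose. Of 18 regulators of these genes, Foxm1 (0.98 ± 0.18, adjusted p = 0.00365), the repressor E2f8 (1.12) and the pocket protein Rbl1 (0.70) were higher in Nrf2-null gastric reflux and Rbbp4 (-0.93) was lower, beside 10.5% and 7.19% of all genes. E2f7, a repressor of the E2F family, rose with duodenal reflux by 2.62 in wild type and 3.36 in Nrf2-null mice. Of 7 CDK inhibitors, Cdkn1c (p57) was lower in Nrf2-null gastric reflux (-1.66) and Cdkn1a (p21) higher in Nrf2-null duodenal reflux (0.64).

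Markers of other cell types moved between the gastric arrays as well. The mean level of 16 skeletal muscle genes, of a list of 20 whose others were not measured on every array, was 0.56, 5.12 and 5.06 on the wild type gastric arrays, and the mean of the 19 mitotic genes measured on every array was -1.99, -2.47 and -2.66 there. On the Nrf2-null gastric arrays the muscle means were 5.28, 1.79 and 1.94 and the mitotic means -1.90, -1.45 and -1.52. In both groups the array or arrays with much muscle RNA had the lowest means of these 19 genes. Over 34 members, measured on the 22 arrays outside slide 1, the means were -1.76, -2.18 and -2.35 in wild type gastric reflux. In Nrf2-null gastric reflux they were nearly level, at -1.38, -1.35 and -1.31. The other mitotic genes were there highest on array 1, at -1.26 against -1.33 and -1.33. Across the groups the mitotic mean ran from -2.37 ± 0.34 (SD, n = 3) in wild type gastric reflux and -2.03 ± 0.18 in Nrf2-null mice without reflux to -1.50 ± 0.04 in wild type duodenal and -1.35 ± 0.02 in Nrf2-null mixed reflux (3 arrays of 1 sample). The groups between were wild type mixed (-1.88 ± 0.05), wild type no reflux (-1.84 ± 0.15), Nrf2-null duodenal (-1.74 ± 0.05) and Nrf2-null gastric reflux (-1.62 ± 0.24). Neighbours in this order differed by less than the larger SD of the pair, other than wild type duodenal and Nrf2-null mixed reflux, whose SDs come from arrays of 1 sample or from arrays that lie nearly as close, at 1.94 to 3.78 times the variance of repeat spots.

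With the muscle mean as a covariate 24 members were called in the gastric genotype comparison and 11 in the gastric interaction, and none in wild type gastric reflux against no reflux. No skeletal muscle gene of 20 was called in the gastric genotype comparison. Muscle means varied widely within both groups (SD 2.61 in wild type and 1.97 in Nrf2-null), so this does not show equal muscle content. In the same comparison 6 of 15 fibroblast genes were lower, beside 7.19% of all genes, such as Dcn (-2.39) and Vim (-1.61). So were 2 of 10 smooth muscle genes (Synm -3.20 and Smtn -1.28). Over all 15 genes the fibroblast means were -0.08 to 0.32 on the wild type gastric arrays and -1.80 to -0.22 on the Nrf2-null ones, and over all 10 the smooth muscle means were 2.98 to 3.72 and 2.01 to 2.91. Of 20 squamous differentiation genes 4 were higher, among them Krt13 (1.28), and of 15 basal keratinocyte genes 3 were higher and 1 lower, beside 10.5% and 7.19% of all genes. The basal means over all 15 were 2.93 to 3.19 on the wild type and 3.08 to 3.65 on the Nrf2-null gastric arrays. Basal and squamous genes were thus present on all arrays of both groups. Neutrophil genes, of which 2 of 9 were higher in Nrf2-null gastric and 4 of 9 in Nrf2-null mixed reflux, had means over all 9 of 0.95 to 1.15 and 1.39 to 2.35 on the gastric arrays. The part of fibroblast, smooth muscle and neutrophil RNA in the mitotic differences was not tested.

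**Figure D4:**
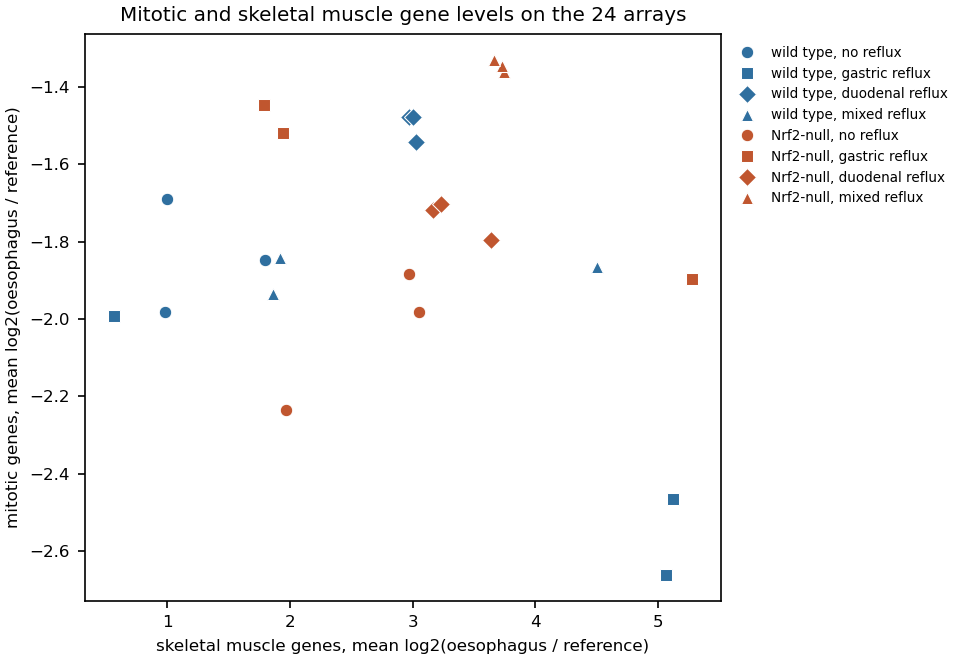
Mean level of the mitotic genes (19 measured on every array) against the mean of 16 skeletal muscle genes on each of the 24 arrays, both as log2 of oesophagus over reference, with colour for genotype and marker shape for reflux type. Wild type gastric arrays 2 and 3, with muscle means of 5.12 and 5.06, have the lowest mitotic means, -2.47 and -2.66.

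Where a gene had several probes the brightest was used. For the 17 such genes, 13 of the 19 other probes gave a gastric genotype difference of the same sign, and those of Anln, Cdca8, Cenpe, Nusap1, Racgap1 and Top2a had the opposite sign. Of these, Cdca8, Nusap1 and Racgap1 are among the 23 genes called higher, so their calls hold for the brightest probe. Over the other comparisons the count of the same sign ran from 9 of 19 in wild type mixed reflux and 11 in the duodenal interaction to 18 in the mean interaction. Cdca8, called in Nrf2-null duodenal reflux, had a probe of opposite sign there.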

How the data were processed

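The files are 24 two-colour arrays' scanner outputs and a table of values. Per the file headers, Agilent Feature Extraction (10.5.1.1 for 2 arrays, 10.7.3.1 for 22; the submitters' processing notes name 9.1) gave spot and local background intensities and a dye-normalized log10 ratio of Cy5 over Cy3. The authors' deposited value table followed those ratios array by array and was read as log2 ratios. All dyes ran 1 way. In R 4.3.3 with limma 3.58.1, intensities were background-corrected (normexp, offset 50), loess-normalized within arrays with control spots at weight 0, and outlier spots were dropped. Background values marked as outliers took the array's median. Repeat spots were averaged and the brightest probe of a gene was kept. A gene was tested where well above background on every array of a group, which all 36 members passed, by 55 of 60 probes. A mean per group was fitted to 22 samples with variances moderated as in limma, genes with missing arrays on those they had. P-values were adjusted by Benjamini-Hochberg over all genes, with calls under 0.05. Errors after ± are SE unless named SD. The fit was tested on simulated data with independent noise for each gene and array. The simulation held no effect of scan day, slide or tissue content, so it does not test for those.

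Members and lists were chosen with earlier results of these data known. All 36 members are accounted for. Array values are given for the gene of each of 8 roles with the smallest p in the mean interaction. In comparisons with calls, at least the 6 called members with the largest differences are named, or all where fewer were called. Where no member was called, those of smallest p are not listed. Up to 4 genes of another list are named in a comparison. Promoters are printed for up to 4 role genes that hold both motifs, in order of interaction p. Replicate numbers were not treated as pairs: across genotypes, 12 same-number correlations of deviations ran from -0.33 to 0.05. With so few arrays in a group these correlations cannot show that the numbers share nothing. The number of arrays limits the precision. Probe positions are those of the files that name mm9 (those of the 2 slide 1 arrays name mm7). Alternatives are given in the closing section.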

Additional observations from a re-analysis of the deposited data

Results flagged for a closer look

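The genes were proposed with opposite genotype differences without and with reflux in view, so the values here describe that pattern and do not support it independently. For 15 genes the genotype difference under reflux departed from that without reflux past the threshold of the interaction test (limma, Benjamini-Hochberg, adjusted p under 0.05), in 1 or more of 3 forms. Under gastric reflux the interactions were 1.44 for Ccna2, 1.15 for Ccnb2 and 1.83 for Cks2, all of mitotic entry, and 1.34 for Aurkb, 1.71 for Birc5 and 1.04 for Cdca8 of the passenger complex. They were 1.51 for the checkpoint kinase Bub1, 2.21 for Cdc20 and 1.86 for the centromeric histone Cenpa. Of the spindle genes they were 1.06 for Kif2c, 1.58 for Kif20a, 1.63 for Kif23 and 1.17 for Tpx2. Under mixed reflux the interactions were 0.88 for Cdk1, 1.48 for Cks1b and 1.66 for Birc5. For the mean over reflux types they were 0.99 for Cks1b, 1.24 for Cks2, 1.46 for Birc5 and 1.59 for Cdc20. Ccna2, Ccnb2, Birc5, Cdca8, Cdc20 and Kif20a were measured on 1 wild type array without reflux, on which their interactions rest. With scan day as a block, whose day 2 to day 3 shift rests on Nrf2-null no-reflux array 3, no member passed in these 3 interactions.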

How the results depend on the processing

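Counts of called members were compared with those reported under each alternative. Median centring gave 1 for the genotype difference under gastric and under mixed reflux, 1 for wild type gastric and 1 for wild type duodenal reflux against no reflux, 0 for gastric, duodenal and mixed reflux against no reflux in Nrf2-null mice, and 2, 0 and 0 for the gastric, mixed and mean interactions. Over all genes it called 3.33% higher and 6.6% lower in the gastric genotype difference, beside 10.5% and 7.19% with loess, and 1.30% and 6.68% in the gastric interaction, beside 1.05% and 0.735%. In wild type gastric reflux the shares were 11.5% and 0.915%, beside 3.07% and 1.06%, and in Nrf2-null duodenal reflux 3.82% and 7.17%, beside 13.5% and 6.31%. The scanner's processed ratios gave 1 for the genotype difference under mixed reflux and 0 for wild type duodenal reflux. The authors' deposited value table gave 1 for wild type duodenal and 0 for Nrf2-null gastric reflux, and 8, 1 and 1 for the gastric, mixed and mean interactions. With local backgrounds as read, 9 members were lower in Nrf2-null mice without reflux, 20 were lower in wild type gastric and 3 in mixed reflux, none passed in wild type duodenal reflux, and the gastric, duodenal, mixed and mean interactions had 25, 1, 9 and 17. With outlier spots kept there were 4 in wild type duodenal reflux, 0 in Nrf2-null gastric reflux and 2 in the mean interaction. No filter on dim probes gave 1 in wild type duodenal reflux, and the mean over probes 1 in the mixed genotype difference.

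With scan day as a block no member passed for the gastric genotype difference, wild type gastric and duodenal reflux, Nrf2-null gastric reflux or the gastric, mixed and mean interactions, while 3 passed in Nrf2-null duodenal and 1 in mixed reflux. Day 2 alone gave 0 for wild type gastric reflux, and day 3 alone gave 1 for the mixed genotype difference and 0, 1 and 0 for Nrf2-null gastric, duodenal and mixed reflux. Slide as a block gave 6 for the duodenal genotype difference, 1 for mixed, 0 for wild type gastric, 3 for Nrf2-null gastric and 2 for mixed reflux, and could not be fitted for the genotype difference without or with gastric reflux, for wild type duodenal and mixed reflux or for the duodenal, mixed and mean interactions. Fits on the groups compared alone gave 0 for the gastric and mixed genotype differences, 1 for duodenal, 0 for wild type gastric, 9 for wild type duodenal and 0 for Nrf2-null gastric reflux, and 0 and 2 for the gastric and duodenal interactions. Counting the Nrf2-null mixed arrays as 3 samples gave 15 for the mixed genotype difference, 5 for wild type duodenal, 4 for Nrf2-null gastric and 23 for Nrf2-null mixed reflux, and 12 and 10 for the mixed and mean interactions. With skeletal muscle as a covariate there were 0 in wild type gastric, 7 in wild type duodenal, 3 in Nrf2-null gastric and 10 in Nrf2-null mixed reflux. The replicate block, on numbers not treated as pairs elsewhere, gave 22 for the gastric genotype difference, 8 for wild type gastric reflux, 1 for wild type duodenal, 0 for Nrf2-null gastric reflux and 2 for the mean interaction.

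The last 4 alternatives were chosen after seeing the data. Without the 2 arrays of lowest Cy5 signal outside slide 1 (Nrf2-null gastric replicate 1 and duodenal replicate 2) there were 1 in the genotype difference without reflux, 9 with mixed reflux, 20 in wild type gastric, 5 in wild type duodenal, 3 in Nrf2-null gastric and 12 in Nrf2-null mixed reflux, and 25, 8 and 9 in the gastric, mixed and mean interactions. Without the 2 arrays of slide 1 (wild type without reflux replicates 1 and 2) there were 0 in wild type gastric, wild type duodenal and Nrf2-null gastric reflux, and 4, 0 and 0 in those interactions. With wild type duodenal arrays as 1 sample the same comparisons gave 0, 0 and 0, and 3, 1 and 0. Slide as a random block (intraclass correlation 0.092) gave 0 in wild type duodenal and Nrf2-null gastric reflux, and 1 and 2 in the mixed and mean interactions.

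Leaving out 1 array at a time, counts ran from 13 to 29 in the gastric genotype difference, 1 to 2 in mixed and 0 to 0 in no reflux and duodenal. They ran from 0 to 20, 0 to 2 and 0 to 0 in wild type gastric, duodenal and mixed reflux, and from 0 to 3, 8 to 12 and 5 to 7 in Nrf2-null mice. In the interactions they ran from 3 to 25 (gastric), 0 to 0 (duodenal), 1 to 3 (mixed) and 0 to 9 (mean). Of the values of single genes under alternatives, 1608 kept direction and side of the threshold, 362 no longer passed it, 16 newly passed and 19 changed sign. Of these only Ttk in wild type duodenal reflux had been called, at 0.67, with -0.10 for local backgrounds as read. Median centring turned the genotype difference without reflux to 0.19 for Cks1b, 0.11 for Plk1, 0.030 for Cenpa, 0.39 for Tpx2, 0.34 for Ect2 and 0.51 for Mki67, that of Plk1 with duodenal reflux to -0.091, Cks1b in wild type mixed reflux to 0.21 and its duodenal interaction to -0.15. Slide as a block turned the duodenal genotype difference to -0.15 for Cks1b, 0.56 for Cdc20 and 1.21 for Mki67, and the mixed one of Ect2 to -1.18. The mean over probes turned Racgap1 in wild type mixed reflux to -0.29. With 1 array left out the no-reflux difference of Mki67 ran from -0.54 to 0.24, turning without wild type no-reflux replicate 3, and that of Plk1 with duodenal reflux from -0.074 to 0.14, turning without wild type or Nrf2-null duodenal replicate 2. It was -0.074 without the 2 arrays of lowest Cy5 signal outside slide 1. Where a cause is not named it was not tested. The lowest-signal arrays limit what dim probes can show.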
